A study of Saccharomyces cerevisiae with 6 samples.

Results

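The COS genes are a family of near-copies that lie close to the ends of *Saccharomyces cerevisiae* chromosomes. The 10 members described here, *COS1* to *COS10*, were taken by gene name from the deposited gene table and are 10 of the 8898 features counted in each library. All 10 passed the filter on low counts. RNA-seq was performed on rRNA-depleted total RNA from haploid BY4742 cells (MATα, *ura3Δ0*, *leu2Δ0*, *his3Δ1* and, in the study's strain list but not in the sample labels, *lys2Δ0*) in which the chromosomal *RRP4* gene was replaced by a *NEO* marker (*rrp4Δ::NEO*). Rrp4 is a cap subunit of the RNA exosome, the complex that processes and degrades RNA from the 3′ end. In both genotypes the only Rrp4 was a 2xMyc-tagged protein supplied from a *LEU2* centromere plasmid (pRS315), bearing wild-type *RRP4* in the controls and, in the mutant, *rrp4-G226D*, a glycine-to-aspartate substitution that models a human disease variant. Each genotype had 3 biological replicates, grown in 10 mL of minimal medium lacking leucine at 37°C for 5 h, so the heat and the plasmid were common to both groups. The question addressed was whether the RNA of this family differed between *rrp4-G226D* and control *RRP4* cells.

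Cos proteins are multispan membrane proteins of the DUP380 group. They act at endosomes, where their own ubiquitin helps cell surface proteins that carry no ubiquitin to enter multivesicular bodies, the compartments that deliver such cargo to the vacuole for degradation. Their genes are known for their place beside the telomere, where chromatin bound by the Sir proteins can silence transcription, and for sequences so alike that short reads cannot always be assigned to 1 copy.

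The family fell into near-identical and divergent copies in the reference genome (RefSeq, build R64). *COS2* (YBR302C, chrII:810340-811479, minus strand) and *COS3* (YML132W, chrXIII:7244-8383, plus strand) are the extreme case. Their 1140 coding bases were 100% identical, as were 1671 bases before the start codon and 53 bases past the stop codon. The 2 sequences below, each the last 30 coding bases and the next 120 bases, show where the copies part. Capitals begin at the first base at which they differ, base 54 past the stop.
COS2, chrII:810220-810369, minus strand: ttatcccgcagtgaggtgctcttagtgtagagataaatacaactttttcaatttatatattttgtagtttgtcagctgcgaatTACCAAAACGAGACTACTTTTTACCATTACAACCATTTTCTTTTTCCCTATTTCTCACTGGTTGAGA
COS3, chrXIII:8354-8503, plus strand: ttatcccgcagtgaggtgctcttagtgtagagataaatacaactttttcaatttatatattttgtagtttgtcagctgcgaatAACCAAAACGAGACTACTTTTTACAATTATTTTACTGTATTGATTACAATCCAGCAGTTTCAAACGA

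**Figure D1:**
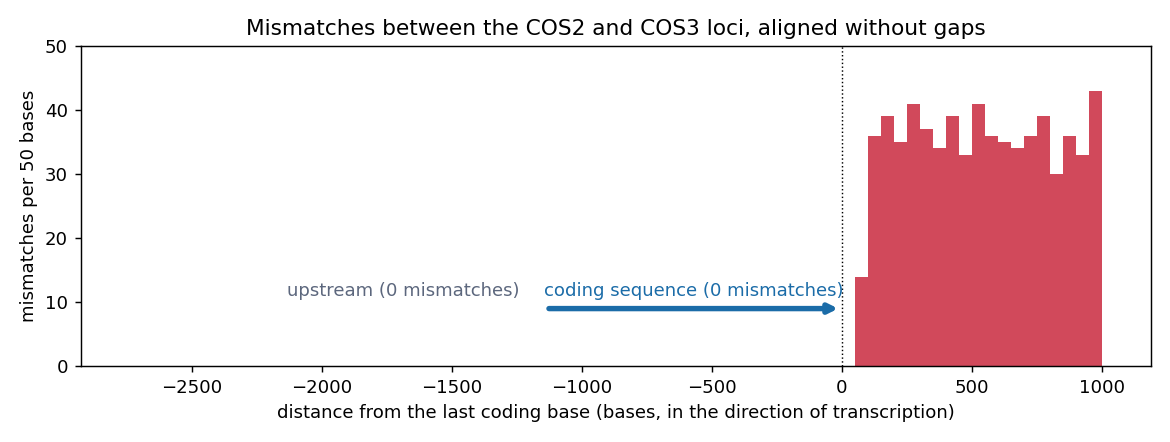
Mismatches between the *COS2* and *COS3* loci in bins of 50 bases (y axis) against the distance in bases from the last coding base (x axis), aligned without gaps. The coding sequence and the plotted bases before it held 0 mismatches, and the first bin past base 50 after the stop held 14.

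None of the 100-base windows in *COS2* or *COS3* occurred once in the genome, so no single read of that length inside either coding sequence could be placed by its own sequence. The share of unique windows was 42.4% for *COS5* (YJR161C), 49.4% for *COS1* (YNL336W), 52.1% for *COS7* (YDL248W), 54.4% for *COS4* (YFL062W) and 84.5% for *COS6* (YGR295C). It was 99.8% for *COS8* (YHL048W) and 100% for *COS9* (YKL219W) and *COS10* (YNR075W). With windows of 150 bases, the length of the study's reads, the shares were higher, at 72.4% for *COS5*, 64.8% for *COS1*, 72.3% for *COS7*, 74.2% for *COS4* and 94.2% for *COS6*, and still 0% for *COS2* and *COS3*. Counts of *COS6*, *COS8*, *COS9* and *COS10* therefore rest on sequence that is mostly or wholly their own, and counts of the others depend in part on how shared reads were handled, which the sources used here do not give. *COS9* had 57.7% to 70.3% coding identity to the other members and *COS10* had 57.7% to 62.4%, against 82.1% to 100% over the 28 pairs among the remaining 8.

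The likeness extended to the promoter. The 80 bases before the start codon are shown for the copies of the main group because all 8 of them share this stretch with few changes. *COS1* and *COS3* have the same 80 bases as *COS2*. Capitals mark bases that differ from *COS2* at the same distance from the start codon.
COS2, chrII:811480-811559, minus strand: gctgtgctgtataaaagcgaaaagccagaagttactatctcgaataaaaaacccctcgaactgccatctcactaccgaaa
COS5, chrX:744000-744079, minus strand: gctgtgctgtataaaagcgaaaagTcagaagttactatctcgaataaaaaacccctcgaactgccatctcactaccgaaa
COS8, chrVIII:6321-6400, plus strand: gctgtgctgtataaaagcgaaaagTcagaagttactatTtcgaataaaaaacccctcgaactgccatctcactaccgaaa
COS7, chrIV:1722-1801, plus strand: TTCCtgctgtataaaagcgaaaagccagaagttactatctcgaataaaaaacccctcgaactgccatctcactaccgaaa
COS4, chrVI:6346-6425, plus strand: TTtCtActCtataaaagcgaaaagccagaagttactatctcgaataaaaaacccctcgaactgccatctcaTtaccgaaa
COS6, chrVII:1082730-1082809, minus strand: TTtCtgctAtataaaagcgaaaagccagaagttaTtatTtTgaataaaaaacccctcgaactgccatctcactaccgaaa

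Among these 8 genes at most 7 of the 80 bases differed from *COS2*, whereas 60 differed in *COS9* and 56 in *COS10*. In the window from 250 bases before to 50 bases after the start codon, searched on both strands, the letters TATAAA (the TATA box) were found in 10 of 10 members and in 45.2% of 6001 promoters. The letters CCCCT (the core of the stress element bound by Msn2 and Msn4) were found in 9 of 10 members, all but *COS10*, and in 21.6% of promoters. CATGTG, the core of the Ino2-Ino4 element, was in 0 of 10 members and 6.93% of promoters, and TTACCCG of Reb1 was in 0 of 10 and 7.08%. Copies of 1 promoter are not independent matches. A match is a description of the letters and not a binding site.

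The members lay on 10 different chromosome arms. In 8 of them, *COS1* to *COS8*, the start codon lay 895 to 905 bases from the annotated telomeric region, and *COS10* lay 2237 bases and *COS9* 13677 bases from it. Transcription ran toward the centromere in 9 members and toward the chromosome end in *COS10*. Coding lengths were 1125 to 1224 bases. *COS1* (chrXIV:8330-9475), *COS4* (chrVI:6426-7565), *COS6* (chrVII:1081584-1082729), *COS8* (chrVIII:6401-7546) and *COS3* sit on ends that carry a Y′ element, a repeat next to the telomere. *COS5* (chrX:742848-743999), *COS7* (chrIV:1802-2953), *COS9* (chrXI:14485-15708), *COS10* (chrXIV:779916-781040) and *COS2* sit on ends without one. No member overlapped another open reading frame of the annotation. CUTs and SUTs (noncoding transcripts counted as separate features) have no coordinates in that annotation, so their overlap with members was not examined.

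The libraries held 7663545 to 12181979 counts. Levels are given as normalized counts, which are counts relative to library size (CPM) after TMM scaling, a set of factors that equalizes the bulk of features between libraries. These factors were 0.82 to 0.88 in *RRP4* and 1.15 to 1.20 in *rrp4-G226D*, so the scaling bears on the differences given below. The plasmid-borne *RRP4* transcript was at 178, 167 and 165 CPM in *RRP4* cells and at 299, 281 and 302 in *rrp4-G226D* cells (log2 fold change 0.79, adjusted p = 4.48e-09, edgeR), a count that does not distinguish the substituted from the wild-type gene. *LEU2*, the marker on the same plasmid, went the other way. Its mean was 2134 CPM in *RRP4* and 1408 in *rrp4-G226D* (log2 fold change −0.60, adjusted p = 4.95e-07, edgeR). The strain labels were checked against marker genes. *URA3* had 0 counts in all libraries and *LYS2* had 0 in all but *rrp4-G226D* replicate 1, where it had 1, while *HIS3*, of which the *his3Δ1* allele removes a part, had 478 to 885. The study's strain list gives the parent strain as MATa and the labels give MATα. *MF(ALPHA)1*, *MF(ALPHA)2* and *STE3* together were at 1176 to 1645 CPM, and 5 MATa markers (*STE2*, *MFA1*, *MFA2*, *STE6* and *BAR1*) together at 52.6 to 73.7. The MATα genes were thus the higher set in every library, and MATα is the mating type of the labels. In bulk RNA, fewer cells with a transcript and less of it per cell cannot be told apart.

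The members covered a wide range of levels. Per kilobase of coding sequence in *RRP4* cells, *COS6* was the highest at 83.0 CPM per kilobase, followed by *COS8* at 51.7 and *COS10* at 34.3. The median of 5734 open reading frames was 52.9 on the same scale, with 67.1% of them below *COS6* and 49.0% below *COS8*. *COS9* (24.4) and *COS1* (23.7) came next and did not differ beyond the spread of their libraries, and neither did *COS5* (12.7) and *COS3* (12.3). *COS7* at 16.2 lay between those pairs. *COS2* was at 6.15 and *COS4* was the lowest at 2.26, above only 1.73% of open reading frames. These levels divide the counts by the full coding length. For *COS1* to *COS5* and *COS7* they depend in part on how shared reads were handled. The order of those members is thus an order of counts and may not be that of their RNA.

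**Figure D2:**
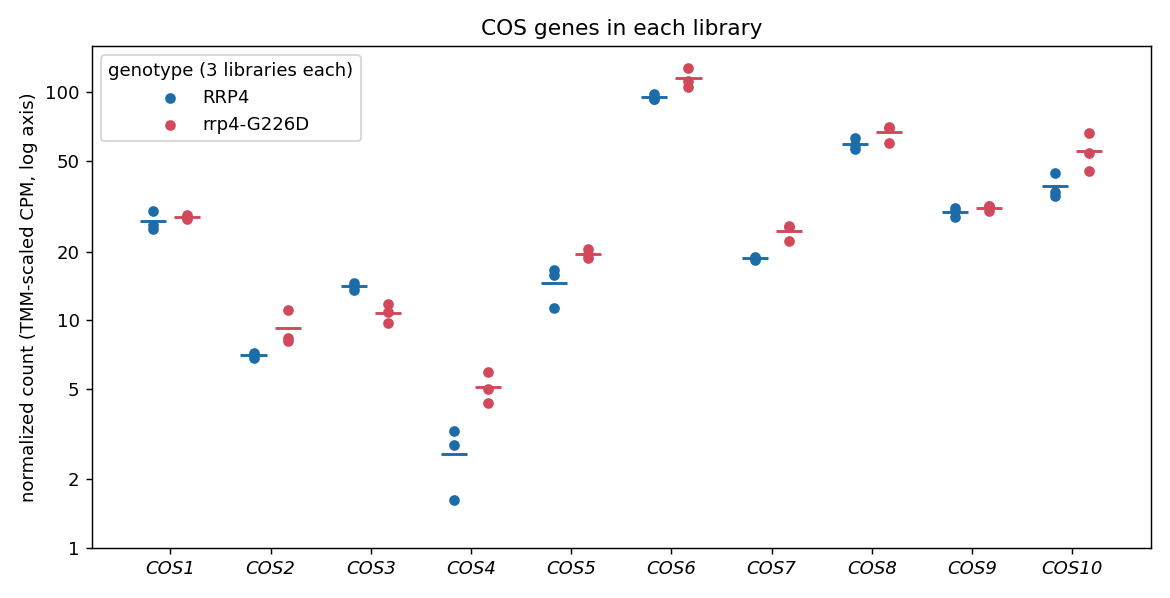
Normalized counts (TMM-scaled CPM, log axis) of the 10 COS genes in each library, with *RRP4* in blue and *rrp4-G226D* in red, 3 libraries each, and a bar at the mean. *COS4* is the lowest gene and shows the widest gap between genotypes, and *COS3* is the gene whose *rrp4-G226D* libraries lie below all *RRP4* libraries under this scaling; with library size as the only scaling its fitted change is 0.06.

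In *rrp4-G226D* cells 1 of the 10 members was increased and 0 were decreased by the thresholds used, an adjusted p under 0.05 together with 1.5-fold or more (edgeR's quasi-likelihood test, Benjamini-Hochberg adjustment over all features tested). Across the 7631 features tested, 12.7% were increased and 11.3% were decreased, and among open reading frames alone the shares were 5.38% and 13%. The family's share of increased genes was thus near these backgrounds. DESeq2 also called 1 increased and 0 decreased. At an unadjusted p below 0.05 (edgeR) 7 members were higher and 1, *COS3*, was lower, and the share of all features at that threshold is not given here. By adjusted p alone 5 members were higher and 1 was lower, against 28.6% and 31% of all features and 23.1% and 37.5% of open reading frames. The members' log2 fold changes had a median of 0.33 (quartiles 0.10 and 0.42) and 9 of 10 lay above 0, whereas the median was 0.01 over all features and −0.07 over open reading frames. In 6 members all 3 *rrp4-G226D* libraries lay above all 3 *RRP4* libraries, in 1 they lay below and in 3 the groups overlapped. Across all features 31.3% had every *rrp4-G226D* library above and 32.8% had every one below.

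**Figure D3:**
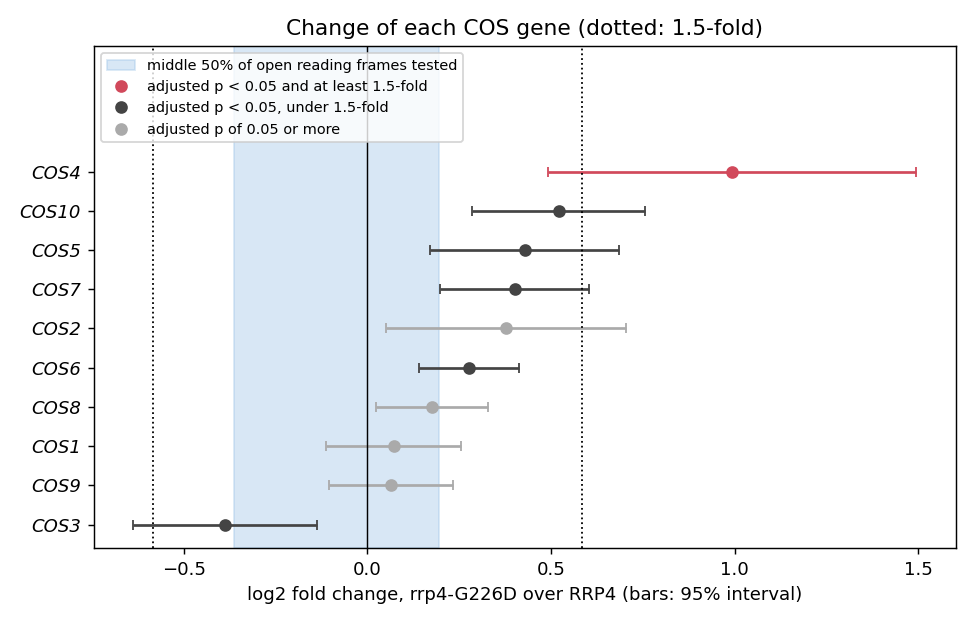
Log2 fold change of each COS gene, *rrp4-G226D* over *RRP4* (x axis), with bars for the 95% interval, dotted lines at 1.5-fold and a shaded band for the middle 50% of open reading frames (−0.36 to 0.20). *COS4* alone was past the dotted line, and *COS3* alone lay below 0 under TMM scaling, at 0.06 when library size was the only scaling.

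The increased member was *COS4*, the copy with the lowest counts. Its raw counts were 27, 15 and 19 in the *RRP4* libraries and 64, 51 and 70 in the *rrp4-G226D* libraries. The normalized counts were 3.27, 1.63 and 2.82, then 5.92, 4.30 and 4.99. Each *rrp4-G226D* library was above each *RRP4* library. The mean went from 2.57 ± 0.85 to 5.07 ± 0.81 (SD, n = 3), a ratio of 1.97 and a log2 fold change of 0.99 (95% interval 0.49 to 1.49, standard error 0.26, adjusted p = 0.00282, edgeR). The interval includes 1.5-fold (0.58), and a test against that fold rather than against 0 (glmTreat) gave an adjusted p of 0.144. The call held when any 1 library was left out (0.72 to 1.23, adjusted p 0.00185 to 0.0294). A filter on genes with a mean count under 50 removes *COS4* altogether.

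*COS10*, one of the 2 members with no near-copy, had the next largest difference, just under the fold threshold. Its normalized counts were 44.3, 35.1 and 36.4 in *RRP4* and 54.0, 45.2 and 66.6 in *rrp4-G226D*. The groups did not overlap, but the highest *RRP4* library (44.3) and the lowest *rrp4-G226D* library (45.2) were close. The mean went from 38.6 ± 4.98 to 55.2 ± 10.7 (SD, n = 3; log2 fold change 0.52, standard error 0.12, adjusted p = 0.00119, edgeR). Without *RRP4* replicate 1 the value was 0.63 and without *rrp4-G226D* replicate 2 it was 0.64, both past 1.5-fold, and without *rrp4-G226D* replicate 3 it was 0.35.

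*COS5* and *COS7* are 95.6% identical in their coding sequence and share 612 bases past the stop. Normalized counts of *COS5* were 11.3, 15.8 and 16.7 in *RRP4* and 20.5, 19.5 and 18.7 in *rrp4-G226D*, with *RRP4* replicate 1 the lowest. The fitted log2 difference was 0.43 ± 0.13 (standard error; adjusted p = 0.00948, edgeR), and it was 0.27 (adjusted p = 0.0801) without that library. *COS7* gave 18.3, 18.8 and 18.9, then 25.8, 22.3 and 25.7. Here the *RRP4* libraries were close together and the *rrp4-G226D* libraries were all higher, at a fitted log2 difference of 0.40 (SE 0.10, adjusted p = 0.00283, edgeR). The ratio of *COS5* to *COS7* counts within a library was 0.78 ± 0.14 in *RRP4* and 0.80 ± 0.073 in *rrp4-G226D* (SD, n = 3; exact permutation test, two-sided, p = 0.9).

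*COS6*, the copy with the highest counts, was at 93.9, 93.5 and 98.0 normalized counts in *RRP4* and at 128, 106 and 113 in *rrp4-G226D*. All *rrp4-G226D* libraries were higher, and the mean went from 95.1 ± 2.48 to 115 ± 11.1 (SD, n = 3). The log2 fold change of 0.28 was small (standard error 0.069, adjusted p = 0.00227, edgeR), and the *rrp4-G226D* libraries themselves ran from 106 to 128.

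*COS8*, *COS1* and *COS9* had overlapping groups. *COS8* was at 58.6, 56.2 and 62.9, then 70.5, 70.1 and 60.1, with *rrp4-G226D* replicate 3 inside the range of the control (log2 fold change 0.18, standard error 0.078, adjusted p = 0.0599, edgeR). Without that library the adjusted p was 0.0117 and the value 0.24. *COS1* was at 26.2, 25.2 and 30.0, then 29.1, 28.3 and 27.7 (log2 fold change 0.07, 95% interval −0.11 to 0.26, adjusted p = 0.533, edgeR). *COS9* was at 30.0, 28.4 and 31.1, then 31.7, 30.1 and 31.6 (0.06, 95% interval −0.10 to 0.23, adjusted p = 0.538, edgeR). Both intervals leave out 1.5-fold in either direction, so a change of that size was not seen in these 2 genes, and *COS9* is a gene whose 100-base windows are all unique.

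*COS2* and *COS3*, the pair with identical coding sequences, had counts that moved apart. Raw counts were 58, 66 and 46 for *COS2* and 116, 134 and 91 for *COS3* in the *RRP4* libraries. In the *rrp4-G226D* libraries they were 120, 96 and 117 for *COS2* and 127, 115 and 152 for *COS3*. Within each *RRP4* library *COS2* had close to 0.50 times the count of *COS3*, at ratios of 0.50, 0.49 and 0.51, whereas in *rrp4-G226D* the ratios were 0.94, 0.83 and 0.77. The mean ratio went from 0.50 ± 0.0065 to 0.85 ± 0.089 (SD, n = 3), a difference of 0.76 on the log2 scale that no scaling of libraries can alter. An exact two-sided permutation test gave p = 0.1, the smallest value that 3 against 3 libraries allow.

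Taken singly, *COS2* was at 7.03, 7.16 and 6.84 normalized counts in *RRP4* and 11.1, 8.10 and 8.34 in *rrp4-G226D*. Its libraries did not overlap, but *rrp4-G226D* replicate 1 stood above the other two, and the log2 fold change of 0.38 had an adjusted p of 0.0606 (standard error 0.17, edgeR), which was 0.273 without that library. Without *rrp4-G226D* replicate 2 it was 0.0404. *COS3* was at 14.1, 14.5 and 13.5, then 11.8, 9.70 and 10.8. It was lower in every *rrp4-G226D* library, at a fitted log2 difference of −0.39 (SE 0.13, adjusted p = 0.0145, edgeR), and with library size as the only scaling this value turned to 0.06. Without *RRP4* replicate 2 the adjusted p was 0.0559. The summed count of both copies does not depend on how reads were divided between them, but does depend on whether shared reads were counted. It was at 21.0 ± 0.66 in *RRP4* and 19.9 ± 2.62 in *rrp4-G226D* (SD, n = 3; log2 fold change −0.08, standard error 0.11, adjusted p = 0.534, edgeR). Neither coding sequence holds a unique window, so inside them the counts rest on the aligner's and counter's treatment of shared reads. Read pairs that reach base 54 past the stop, where the copies part, could be placed by sequence. The part of either in the counts or in the ratio was not tested.

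**Figure D4:**
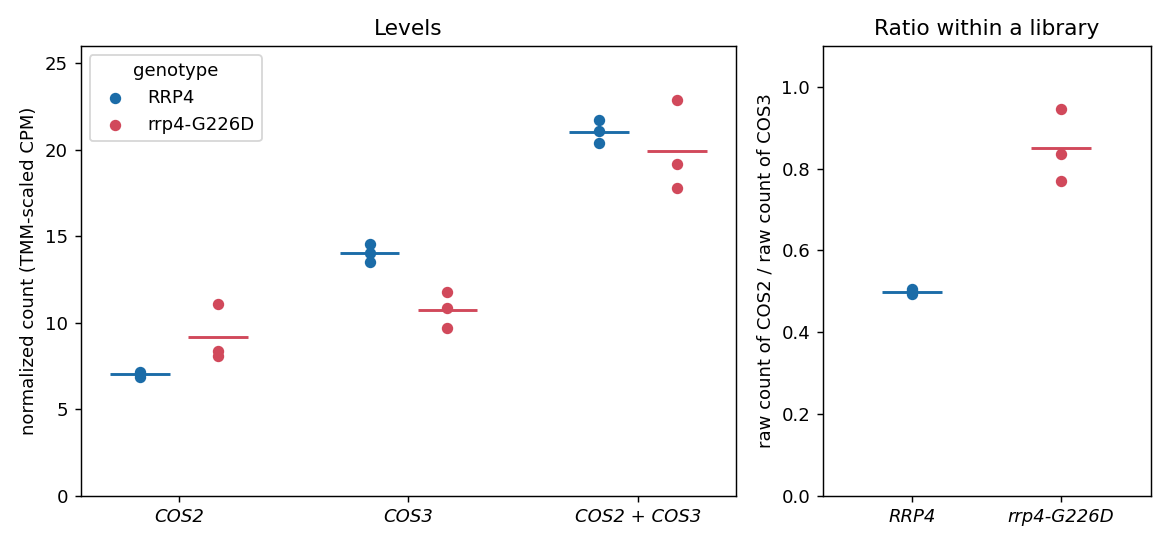
Left, normalized counts (TMM-scaled CPM) of *COS2*, *COS3* and their sum in each library, with bars at the means. Right, raw count of *COS2* over that of *COS3* within each library, from 0.49 to 0.51 in the 3 *RRP4* libraries and from 0.77 to 0.94 in the 3 *rrp4-G226D* libraries, while the sums of the 2 genotypes overlap. *COS3* is lower in *rrp4-G226D* under TMM scaling and at a log2 fold change of 0.06 when totals alone set the scale; the ratio depends on neither.

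Summed over the 10 copies, the family was at 307, 296 and 317 normalized counts in *RRP4* and 388, 343 and 367 in *rrp4-G226D*. Every *rrp4-G226D* library was higher. The mean went from 307 ± 10.4 to 366 ± 22.3 (SD, n = 3), a ratio of 1.19 and a log2 ratio of 0.26. As an unscaled share of all counts the family took 0.0263% ± 0.0014 in *RRP4* and 0.0427% ± 0.0019 in *rrp4-G226D*, a ratio of 1.63. When each copy was left out of the sum in turn, an alternative chosen after the values were seen, the log2 ratio lay between 0.21 (without *COS10*) and 0.28 (without *COS3*).

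*COS6* and *COS8* together made up 50.3% of family counts in *RRP4*. In 2 members, *COS4* and *COS7*, all shares were higher in *rrp4-G226D*, with *COS4* going from 0.84% ± 0.26 to 1.38% ± 0.14 and *COS7* from 6.08% ± 0.22 to 6.72% ± 0.27 (SD, n = 3). In 3 members, *COS1*, *COS3* and *COS9*, all shares were lower, with *COS3* going from 4.58% ± 0.32 to 2.93% ± 0.10 and *COS9* from 9.73% ± 0.12 to 8.52% ± 0.30. In the other 5 the genotypes overlapped. A share can fall when other copies rise. The normalized counts of *COS1* and *COS9* overlapped between genotypes, with ratios of means of 1.05 and 1.04, so their lower shares are not lower levels. *COS1* and *COS4*, which are 95.8% identical in coding sequence, thus differed in their shares, and the ratio of *COS1* to *COS4* counts went from 11.4 ± 3.79 to 5.68 ± 0.85 (SD, n = 3; exact permutation test, two-sided, p = 0.1, the smallest possible). This ratio sets the member already called increased against 1 that was not. It restates that call and is not separate support for it.

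The size of the differences depended on the scaling, and of the 10 members *COS3* changed sign with it. When libraries were scaled by their totals alone, the median of all features moved to 0.46 and 7 members were called increased. Relative to that median, *COS4* was at 0.98, *COS10* at 0.51, *COS6* at 0.27 and *COS3* at −0.40, which are the values relative to the median under TMM as well.

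**Figure D5:**
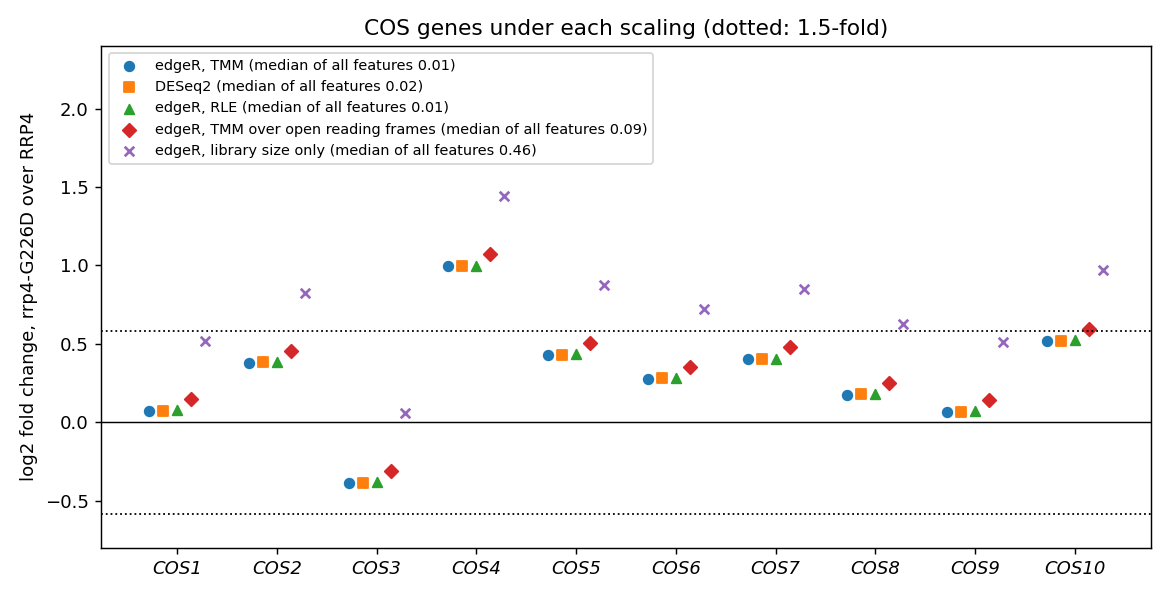
Log2 fold change of each COS gene under 5 scalings (symbols), with dotted lines at 1.5-fold and the median of all features under each scaling in the legend. Library size only lifted all 10 genes together, and *COS3* is the gene whose sign changed with it, from −0.39 to 0.06.

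Members on ends with and without a Y′ element did not separate. The 5 on ends with one ranged from −0.39 (*COS3*) to 0.99 (*COS4*), with a median of 0.18, and the 5 on ends without one ranged from 0.06 (*COS9*) to 0.52 (*COS10*), with a median of 0.40. The 4 members with at least 80% unique windows (*COS6*, *COS8*, *COS9* and *COS10*) had a median of 0.23, and the other 6 a median of 0.39. Those 4 genes carry differences that shared reads can affect least.

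The nearest open reading frame on each side of a member is a measure of the local chromosome end. Of 17 such neighbours found in the count files 10 passed the filter, with 2 increased and 2 decreased. Over all features 12.7% were increased and 11.3% decreased, and over open reading frames 5.38% and 13%, so these few genes are a count only. Left of *COS3*, YML133C was at 1.28 ± 0.065 in *RRP4* and 3.11 ± 0.24 in *rrp4-G226D* (SD, n = 3; log2 fold change 1.28, adjusted p = 0.000778, edgeR), and left of *COS4*, YFL064C was at 2.24 ± 0.12 and 4.62 ± 0.65 (1.05, adjusted p = 0.000947, edgeR). Both lie inside the annotated telomeric region of that end, YML133C as a putative Y′ helicase gene, and Y′ sequences have copies at other ends. YML131W encodes an uncharacterized protein similar to dehydrogenases. Right of *COS3*, 1814 bases away and on the same strand, YML131W was at 79.8, 82.8 and 85.3 in *RRP4* and at 47.1, 38.1 and 40.3 in *rrp4-G226D*. These groups were far apart (log2 fold change −0.98, adjusted p = 1.05e-08, edgeR). The other decreased neighbour was *SRY1*, which encodes 3-hydroxyaspartate dehydratase and lies beside *COS9* (−0.69, adjusted p = 1.88e-05, edgeR). *COS9* itself gave 0.06.

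The neighbours that were not called included *ARN2*, a siderophore transporter gene beside *COS8*, at 49.3 ± 3.55 and 50.7 ± 1.79 (SD, n = 3; log2 fold change 0.04, adjusted p = 0.686, edgeR). *FRE2*, a ferric reductase gene on the far side of *COS9*, gave 0.16 (adjusted p = 0.304, edgeR), and *AIF1*, a cell death factor gene beside *COS10*, gave 0.23 (adjusted p = 0.0141, edgeR). The maltose permease homologs *MPH3* (−0.36) and *MPH2* (0.50) beside *COS5* and *COS7*, and the seripauperin gene *PAU12* (−0.09) beside *COS6*, had adjusted p of 0.286 or more. *MPH2* and *MPH3* flank *COS7* and *COS5* at the same distance of 3031 bases and gave values of opposite sign that did not pass the test. *MPH2* had only 6, 7 and 7 counts in the *RRP4* libraries and a standard error of 0.39, so the signs are not read as a difference between these ends.

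Outside the 10 members, *COS12* (YGL263W), a further family gene 2008 bases from the telomeric region, was increased. Its raw counts were 2, 7 and 0 in *RRP4* and 27, 16 and 26 in *rrp4-G226D*. The mean of normalized counts went from 0.33 ± 0.39 to 1.90 ± 0.58 (SD, n = 3; log2 fold change 2.31, standard error 0.54, adjusted p = 0.00134, edgeR), from few reads. *COS12* passed the low-count filter only through its *rrp4-G226D* libraries, the group in which it is high. Its call is thus not independent of the filter. *COS12* and *COS4* had the lowest counts of these COS genes and the largest log2 fold changes. *COS111* (YBR203W), which bears the name but is annotated as unrelated to the family, was at 71.4 ± 3.43 and 73.8 ± 6.37 (0.05, adjusted p = 0.589, edgeR).

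Of other annotated genes within 20 kb of a chromosome end, 168 of 247 passed the filter, with 47 increased, 14 decreased and a median of 0.28, *COS12* among them. The shares over all open reading frames were 5.38% increased and 13% decreased, and over all features 12.7% and 11.3%. This median lies close to the 0.33 of the COS members and above the −0.07 of all open reading frames. Genes such as *COS12* passed the filter through their *rrp4-G226D* libraries alone, which can raise both the increased count and the median. How many did so was not counted. The Y′ helicase genes named *YRF1-1* to *YRF1-8* had 2 of 8 genes tested and 0 called by edgeR or DESeq2. At an unadjusted p below 0.05, for which no share of all features is given, 1 was higher. The list holds only genes of that name. YML133C, the putative Y′ helicase gene increased beside *COS3*, is not in it, so these counts do not cover all Y′ helicase RNA. Of 24 seripauperin (*PAU*) genes, cell wall mannoprotein genes of chromosome ends, 7 were tested, with 0 increased at either an adjusted or an unadjusted p below 0.05. One of them, *PAU17*, was decreased (log2 fold change −0.66) by edgeR, and 0 were called by DESeq2. In the DUP240 family, membrane proteins related to the Cos proteins, 0 of 10 were increased and 1 was decreased, by edgeR and by DESeq2, with a median of −0.09. It was *PRM9*, a pheromone-regulated gene (−0.65, adjusted p = 0.00044, edgeR). By p alone, adjusted or not, there were 2 higher and 3 lower genes, where by adjusted p alone 23.1% of open reading frames were higher and 37.5% were lower.

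Among 12 genes of silencing proteins and sirtuins, 0 were called by edgeR or DESeq2, and by p alone, adjusted or not, 6 were higher and 2 lower, where by adjusted p alone 23.1% of open reading frames were higher and 37.5% were lower. The log2 fold change was −0.30 for *SIR2*, which encodes the histone deacetylase, 0.28 for *SIR3* and 0.16 for *SIR4* (adjusted p = 0.00166, 0.00591 and 0.0358, edgeR), all chosen after their values were seen. The 21 genes of ubiquitin-dependent sorting into multivesicular bodies, the pathway in which Cos proteins act, had 1 increased, 1 decreased and a median of −0.15. By adjusted p alone 3 were higher and 9 were lower, to be read against the same shares of open reading frames. The increased gene was *VPS24*, an ESCRT-III subunit, at 3.03, 2.71 and 3.42, then 5.09, 8.43 and 7.20 (log2 fold change 1.20, adjusted p = 0.000223, edgeR). The decreased gene was *MVB12*, an ESCRT-I subunit, at 16.8, 18.1 and 14.7, then 10.4, 10.4 and 11.3 (−0.64, adjusted p = 0.000287, edgeR).

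The 15 genes of membrane cargoes that travel through multivesicular bodies had 0 increased and 4 decreased, by edgeR and by DESeq2, and a median of −0.37. At an unadjusted p below 0.05 there was 1 higher gene and 10 were lower. By adjusted p alone 0 were higher and 10 were lower, where 23.1% of open reading frames were higher and 37.5% were lower. The decreased genes were the glucose transporters *HXT6* (log2 fold change −1.86) and *HXT7* (−1.01), the iron permease *FTR1* (−1.23) and the inositol transporter *ITR1* (−0.87), with adjusted p of 1.23e-07 or less (edgeR). *HXT6* and *HXT7* are near-identical copies whose reads may be shared. Against 13% of open reading frames decreased, these 4 of 15 genes are a count only. These are RNA levels, and Cos protein and the sorting of any cargo were not measured in these files.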

How the data were processed

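The authors made stranded libraries from rRNA-depleted RNA of 3 *RRP4* and 3 *rrp4-G226D* cultures. Paired reads were aligned by STAR against S288C R64, with CUTs and SUTs added to its annotation. Raw counts per feature from featureCounts 1.6.4 were deposited, one file per library. The strand setting and the treatment of reads that map to several copies are not given in the sources used here. A second deposited table held the authors' mean normalized signal, log2 fold change with its standard error, Wald score, p-value and adjusted p-value from DESeq2; only its gene names were used.

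Differences were tested over all features with edgeR 4.0.16 under R 4.3.3 (quasi-likelihood, TMM, filterByExpr, no term beside genotype). A call needed 1.5-fold or more and an adjusted p (Benjamini-Hochberg) under 0.05. Standard errors (SE) are the log2 fold change divided by the square root of F, and 95% intervals are 1.96 SE to each side. Normalized counts are TMM-scaled CPM. Alternatives used DESeq2 1.42.0, other scalings, filters and fold thresholds, each library left out, and a replicate block. Unique windows, coding DNA identity, distances and motifs were computed from RefSeq R64 with Python 3.11.15. Replicate libraries of 1 genotype differed beyond counting noise (chi-square per degree of freedom 2.33 to 9.60), so none was counted as a duplicate. Counting error is largest for *COS4*, at 15 to 27 counts in *RRP4*. The members and all gene lists were chosen with earlier results of these data known, and no p over a list is given. The genes named are the 10 members, *COS12*, *COS111*, tested neighbours, up to 4 called genes of each list and the label checks. *SIR2*, *SIR3* and *SIR4*, which were not called, were added after their values were seen and are not the genes of their list with the largest changes.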

Additional observations from a re-analysis of the deposited data

How the results depend on the processing

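Of 157 values of single members under alternatives, 146 kept their direction and side of the threshold, 9 newly passed it, 1 no longer did and 1 reversed. With library size only, 7 members were called increased, the family sum had a log2 ratio of 0.70, and *COS3* reversed to 0.0605 (adjusted p = 0.689, edgeR). This alternative shifts the median of all features by construction. With TMM computed over open reading frames, 2 members were called increased and the family sum was 0.33, the same figure as the median of the members' own log2 fold changes (0.33). The count of increased members was 0 with a mean count of at least 50, 0 with glmTreat and 0 at 2-fold, and 5 with no fold threshold, where 1 member was decreased. It was 1 to 2 when a library was left out.

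The replicate numbers did not pair the libraries, as deviations of same-numbered libraries correlated at 0.0015, 0.12 and −0.18. With a replicate block 1 member was increased and 0 were decreased, *COS4* was at 1.00 and *COS3* at −0.39. Depth limits *COS4* and *COS12* most. Results for *COS2* and *COS3* are limited by their identical sequence, and *COS2* also by its 46 to 66 counts in *RRP4*.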
